A study of Mus musculus with 4 samples.

Results

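The wide shared distal peaks are regions of open chromatin in mouse bone mesenchymal stem cells (MSCs) that lie far from any gene start and were open at both oxygen levels. A peak was a member if it lay on an autosome, had been assigned to both culture conditions by the peak caller, was at least 2000 and under 8000 bp wide and had its nearer edge 10 to 200 kb from the nearest protein-coding start site of GENCODE M21. This rule took 12076 of the 128055 peaks in the table, and no signal value or fold change entered it directly. The peak caller, however, set the widths and the assignment to both conditions from the reads of these same libraries. Peaks given to hypoxia alone are therefore left out of the members but stay among all peaks. For comparison, 56879 shared distal peaks in the same distance range were narrower than 2000 bp, and 9133 shared peaks of the same width had a start site no more than 1 kb away.

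Accessibility was measured with ATAC-seq, in which the Tn5 transposase cuts and tags open DNA, to compare open chromatin between MSCs kept at low and at ambient oxygen. Cells from the hind-limb bones of male C57BL/6N mice aged 3 to 5 months were sorted on day 12 as CD45-/Ter-119-/Sca-1+/CD140a+. Hypoxia-cultured cells stayed at 2% O2 and normoxia-cultured cells were shifted to 21% O2, with no other treatment or genotype named, and each condition had 2 libraries, numbered 1 and 2, from experiments that the study calls biologically independent. The study describes a sorted population divided between the conditions, and the labels do not say which libraries came from the same isolation. MSCs in culture are a population that was purified by surface markers, so peaks of rarer cells among them could not be told apart.

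Distal enhancers are stretches of DNA, bound by transcription factors in the gaps between nucleosomes, that raise the transcription of genes which may lie far away along the chromosome. In stromal cells many of them carry motifs for AP-1, the Fos and Jun dimer that answers growth, stress and matrix signals, and for the RUNX, TEAD and CEBP families, which act in bone, growth control and fat. An open distal region may also be an insulator, an unannotated promoter or a repeat, and accessibility alone does not tell these apart, nor does the nearest gene have to be the target.

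The regions printed here are the central 300 bases of members that the results turn on, read from the forward strand of the RefSeq GRCm38 genome (mm10 coordinates). Capitals mark every match, on either strand, to TGACTCA (AP-1), GGAATG (TEAD), TGTGGT (RUNX), TTGGCA (NFI), TTGCNNAA (CEBP) and CAGCTG (an E-box). These letters occurred in the central 300 bases of 15.2% (AP-1), 21.3% (TEAD), 26.3% (RUNX), 19.3% (NFI), 15.8% (CEBP) and 17.1% (E-box) of all peaks. Both members of the first pair were called lower in normoxia, with the lowest p-values among members free of annotated exons.
Stc2 (lower), chr11:31382201-31382500: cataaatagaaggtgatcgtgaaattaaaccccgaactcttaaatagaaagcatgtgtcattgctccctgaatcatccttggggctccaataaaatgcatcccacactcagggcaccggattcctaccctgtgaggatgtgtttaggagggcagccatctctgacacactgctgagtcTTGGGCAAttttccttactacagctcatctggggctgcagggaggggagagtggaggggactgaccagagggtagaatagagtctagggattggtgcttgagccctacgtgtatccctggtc
Cdh5 (lower), chr8:104022701-104023000: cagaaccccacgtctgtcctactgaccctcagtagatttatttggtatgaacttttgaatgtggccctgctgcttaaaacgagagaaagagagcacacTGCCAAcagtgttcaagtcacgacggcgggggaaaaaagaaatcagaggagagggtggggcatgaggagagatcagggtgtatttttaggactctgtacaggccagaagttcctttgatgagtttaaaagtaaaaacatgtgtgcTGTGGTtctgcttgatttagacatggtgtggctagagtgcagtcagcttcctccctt
The next 2 were called higher in normoxia, and 46.3% and 31.7% of their printed bases were masked as repeats in the reference. No capital appears in them, since none of the 6 motifs was present.
Ly6c2 (higher), chr15:75086151-75086450: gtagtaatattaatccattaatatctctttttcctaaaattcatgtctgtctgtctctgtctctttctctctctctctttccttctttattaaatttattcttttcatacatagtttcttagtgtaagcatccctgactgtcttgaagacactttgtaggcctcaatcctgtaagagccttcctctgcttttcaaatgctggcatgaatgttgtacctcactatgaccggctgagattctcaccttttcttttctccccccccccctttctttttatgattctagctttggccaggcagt
Polr3k (higher), chr2:181917901-181918200: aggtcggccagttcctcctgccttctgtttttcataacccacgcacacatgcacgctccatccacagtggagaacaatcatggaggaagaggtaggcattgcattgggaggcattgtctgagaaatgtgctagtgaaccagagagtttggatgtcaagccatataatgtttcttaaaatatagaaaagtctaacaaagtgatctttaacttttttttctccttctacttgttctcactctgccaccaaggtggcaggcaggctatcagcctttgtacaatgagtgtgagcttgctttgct
The next member was among the 5 with the highest signal per kb and was free of exons, and none of the 6 motifs matched here either.
Gm21060 (strongest per kb), chr19:61266201-61266500: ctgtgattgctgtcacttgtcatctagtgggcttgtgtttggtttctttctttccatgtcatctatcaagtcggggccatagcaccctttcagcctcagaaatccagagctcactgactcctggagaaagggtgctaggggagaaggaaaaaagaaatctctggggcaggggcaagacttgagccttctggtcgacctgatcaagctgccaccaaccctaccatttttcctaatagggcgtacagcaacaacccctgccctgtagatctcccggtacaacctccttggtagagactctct
The last pair, picked after their values were seen, were the members called lower with the lowest p-values among those with an AP-1 match in this window and outside exons.
Tgif1 (lower with AP-1), chr17:70738351-70738650: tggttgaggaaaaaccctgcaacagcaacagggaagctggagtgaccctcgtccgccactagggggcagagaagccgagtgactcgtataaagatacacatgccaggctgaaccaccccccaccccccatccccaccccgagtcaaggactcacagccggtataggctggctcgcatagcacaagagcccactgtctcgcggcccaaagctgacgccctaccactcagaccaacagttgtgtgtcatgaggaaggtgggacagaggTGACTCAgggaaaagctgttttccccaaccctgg
Gas7 (lower with AP-1), chr11:67515701-67516000: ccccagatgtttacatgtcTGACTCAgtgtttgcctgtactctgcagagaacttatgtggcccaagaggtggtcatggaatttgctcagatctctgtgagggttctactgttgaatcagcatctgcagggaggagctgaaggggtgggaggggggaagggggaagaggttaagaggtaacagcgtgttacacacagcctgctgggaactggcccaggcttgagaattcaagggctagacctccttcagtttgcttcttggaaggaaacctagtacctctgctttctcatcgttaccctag

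The label of these peaks as strong enhancer-like regions was checked against what the files hold. The deposited signal of a peak is a read number scaled to a common library total and is not divided by width, so a wide peak has a high value by construction. The median member had a mean signal of 52.1 against 14.3 for all peaks, but per kb of peak the medians were 17.3 and 13.4. Narrow distal peaks had 12.8 per kb and promoter peaks of the same width 31.0, so per base these regions were above narrow distal peaks and well below promoters. No histone mark was read here, and the regions are called wide distal peaks below. As a further check, 122 members overlapped a VISTA element, a conserved sequence tested for enhancer activity in mouse embryos and listed by RefSeq, which is 1.01% of members against 0.283% of narrow distal peaks and 0.175% of promoter peaks. Per Mb of peak sequence the members (3.25) and the narrow distal peaks (2.99) were close, and the promoter peaks had 0.502. A total of 36 members overlapped a VISTA element active in the embryonic limb.

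Of the 12076 members, 5456 were intergenic, 4632 lay in an intron of a protein-coding gene with no exon touched, and 1988 overlapped an exon of such a gene. A further property not used by the rule was that 1059 members had a start site of another gene type no more than 1 kb away. The median GC content was 46.2%, between that of narrow distal peaks (45.0%) and promoter peaks (52.3%). The ratio of observed to expected CpG was 0.206 in members and 0.527 in the promoter peaks, so the members were CpG-poor. The median member was 2700 bp wide, 38039 bp from the nearest start site, and had 15.5% of its bases in repeats.

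The 4 libraries had totals of 26680936 to 29965523 reads, recovered from the steps of the deposited values. Totals overlapped between conditions, but reads in peaks did not. Over all peaks of the table, those of the mitochondrial genome included, there were 16104713 and 18338038 reads in hypoxia against 8682213 and 11252541 in normoxia. The part of this difference in the results was not tested. The median member held 165 and 188 reads in hypoxia and 108 and 133 in normoxia, against 43, 48, 33 and 40 for the median of all peaks, so single members rest on more reads than most peaks. At the promoters of markers (strongest peak within 1 kb, signal per kb) Pdgfra had 23.9, Cd44 20.2, Thy1 20.3, Ly6a 19.3, Prrx1 15.002 and Eng 7.37, no promoter peak was found for the blood markers Ptprc, Itgam and Gata1, for the endothelial Cdh5, for the epithelial Cdh1 or for the muscle marker Myod1, and Kdr, Spi1, Pecam1, Epcam and Myf5, markers of other cell types, had 17.9, 16.4, 16.0, 10.8 and 9.44, so per kb the marker groups overlapped. Their part in the results was not tested.

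As deposited, the wide distal peaks had less signal in normoxia. Members held 9.34% and 10.3% of the library total in hypoxia and 6.04% and 6.78% in normoxia, so both normoxia libraries were below both hypoxia libraries (exact permutation test over libraries, two-sided p = 0.33, the smallest that 2 against 2 allows). As a share of the reads in nuclear peaks, however, members took 18.98% and 19.4% in hypoxia and 19.4% and 19.2% in normoxia, and the groups overlapped (exact permutation p = 0.667). The median signal per kb of a member was 19.4 and 21.4 in the hypoxia libraries against 13.4 and 14.9 in the normoxia libraries. In the plot of signal per kb by library, the promoter peaks show the same order at a higher level and the narrow distal peaks a smaller gap.

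**Figure D1:**
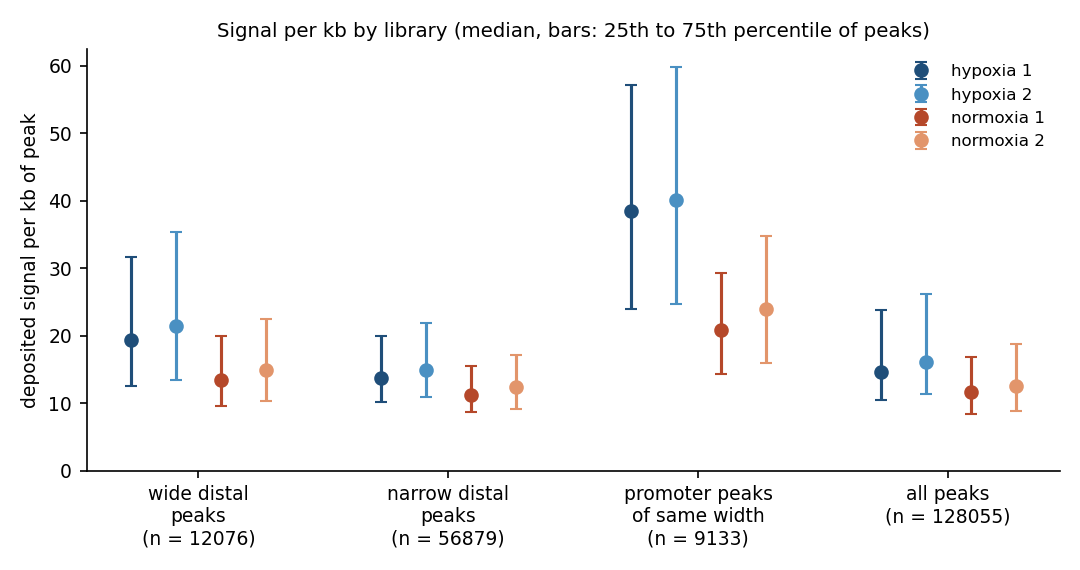
Deposited signal per kb of peak (y axis) in the 4 libraries for wide distal peaks, narrow distal peaks, promoter peaks of the same width and all peaks; points are medians over peaks and bars run from the 25th to the 75th percentile of peaks. The wide distal peaks sit at 19.4 and 21.4 in hypoxia and at 13.4 and 14.9 in normoxia.

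Since the table as a whole was lower in normoxia as deposited, with a median log2 fold change (normoxia over hypoxia) of -0.44 over all peaks and of -0.53 over members, libraries were put on a common scale before single peaks were tested. The main scaling used relative log expression (RLE) factors, that is the median ratio of a library to the mean of all libraries, which brought the median over all peaks to -0.004 and that over members to -0.06. On this scale limma called 899 members (7.44%) lower and 211 (1.75%) higher in normoxia at a false discovery rate (FDR) under 0.01, against 4.57% lower and 1.77% higher of all 128055 peaks. On the RLE scale called members were lower more often than higher, and the share of higher calls was close to the background. Under cyclic loess, quantile scaling and an equal total over peaks, called members were higher more often than lower. In 37.8% of members both normoxia libraries were below both hypoxia libraries and in 23.8% both were above, against 29.6% and 27.4% of all peaks.

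The split of calls depended on the scaling. With the values as deposited, 5017 members were called lower and 18 higher, against 24.0% and 0.391% of all peaks. With cyclic loess, which also levels a trend with signal, 130 were called lower and 382 higher, against 1.31% and 1.42% of all peaks, and the median of members turned to 0.07. Each of these 130 was also among the 899 of the main scaling, and 169 of the 382 were among the 211. The edgeR quasi-likelihood test on the recovered reads called 1122 lower and 303 higher, including all 899 and all 211. With the library number as a block, limma called 1235 lower and 377 higher. Without hypoxia replicate 1 or without hypoxia replicate 2, limma called 0 members in either direction (unadjusted p under 0.05 lower in 1971 and 1667, higher in 884 and 825).

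The change of a member moved with its signal, as the plot of change against signal shows. The median log2 fold change on the RLE scale was 0.25 for members with a mean signal under 20, 0.08 from 20 to 50, -0.13 from 50 to 100, -0.28 from 100 to 200 and -0.37 at 200 and over. Of the 315 members at 200 and over, 137 were called lower and 4 higher, and of the 693 under 20, limma called 0 lower and 14 higher (unadjusted p under 0.05 in 5 and 185, edgeR 0 and 24). Of all peaks, 50.7% were called lower and 0.988% higher at 200 and over, and 0.904% and 1.8% under 20. For members these shares were 43.5% and 1.27%, and 0% and 2.02%. Narrow distal peaks and promoter peaks showed the same slope, with medians of -0.21 and -0.24 from 50 to 100. The median member called lower had a signal of 120 and 36.7 per kb, and the median member called higher 41.3 and 11.6 per kb.

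**Figure D2:**
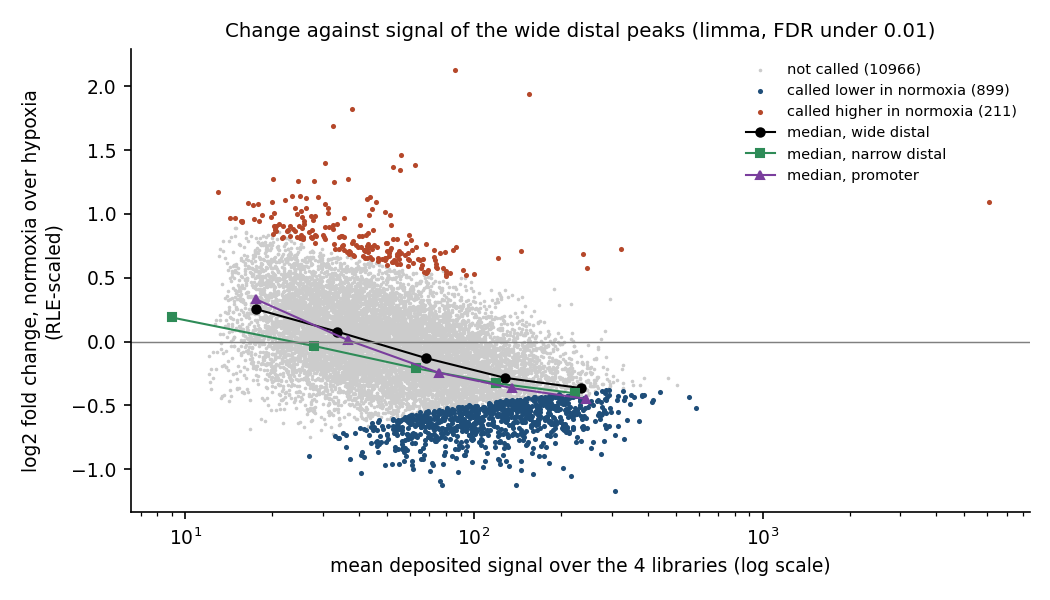
Each point is 1 wide distal peak, with its mean deposited signal over the 4 libraries (x axis, log scale) and its log2 fold change of normoxia over hypoxia after RLE scaling (y axis); blue points were called lower and red points higher by limma at an FDR under 0.01, and lines join medians of the wide distal, narrow distal and promoter peaks in 5 bands of signal. The median of the wide distal peaks falls from 0.25 to -0.37 from the weakest to the strongest band, and the other lines fall as well.

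Against narrow distal peaks, members had relatively less signal in normoxia on the RLE scale, and the sign turned under quantile and cyclic loess scaling. The difference of medians (members minus narrow, log2 deviation of a library from the mean of the groups) was 0.08 and 0.09 in the hypoxia libraries against -0.11 and -0.08 in the normoxia libraries, an effect of -0.18 with no overlap (exact permutation p = 0.33). Within bands of equal total signal the sign turned, with an effect of 0.11 from 20 to 50 and of 0.08 from 50 to 100. Signal was not divided by width, and from 50 to 100 the median was 22.6 per kb in members and 41.9 in narrow peaks. At 10 to 20, 20 to 40 and 40 or more per kb, members had median log2 fold changes of 0.01, -0.21 and -0.34. Narrow peaks had 0.17, -0.06 and -0.24, so there members stayed lower. Under 10 per kb the medians were 0.22 and 0.19. Against promoter peaks of the same width the effect was 0.23, with -0.16 and -0.07 in hypoxia and 0.15 and 0.08 in normoxia (exact permutation p = 0.33), and in bands of rising signal it was -0.08 under 20, then 0.07, 0.12, 0.09 and 0.08. Under quantile and cyclic loess scaling it was 0.11. Promoter peaks were called lower in 23.5% and higher in 0.35%, so more of them than of the wide distal peaks fell.

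Distance to the nearest start site made little difference to the change. From 10 to 20 kb there were 2872 members, with a median signal per kb of 17.8 and 19.2 in hypoxia against 12.5 and 13.5 in normoxia. The 4519 members from 20 to 50 kb had 18.7 and 20.7 in hypoxia against 13.1 and 14.5 in normoxia. The 2813 members from 50 to 100 kb had 20.9 and 23.1 in hypoxia against 14.3 and 15.7 in normoxia. In the 1872 members from 100 to 200 kb the values were 21.2 and 24.0 in hypoxia against 14.5 and 16.0 in normoxia. Signal per kb therefore rose with distance in each of the 4 libraries, and both normoxia libraries were below both hypoxia libraries in every class.

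After RLE scaling the median log2 fold changes of the 4 distance classes, from near to far, were -0.05, -0.06, -0.07 and -0.06. Called lower were 7.21%, 6.68%, 8.18% and 8.55% of the classes, and called higher 2.02%, 1.62%, 1.56% and 1.92%. The farthest class minus the nearest gave -0.03 and 0.05 in the hypoxia libraries against -0.02 and 0.01 in the normoxia libraries. The effect of -0.01 was smaller than the pooled SD between libraries of one condition (0.04, n = 2 each), and the groups overlapped (exact permutation p = 1). A trend of the change with distance was not detectable with these libraries.

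**Figure D3:**
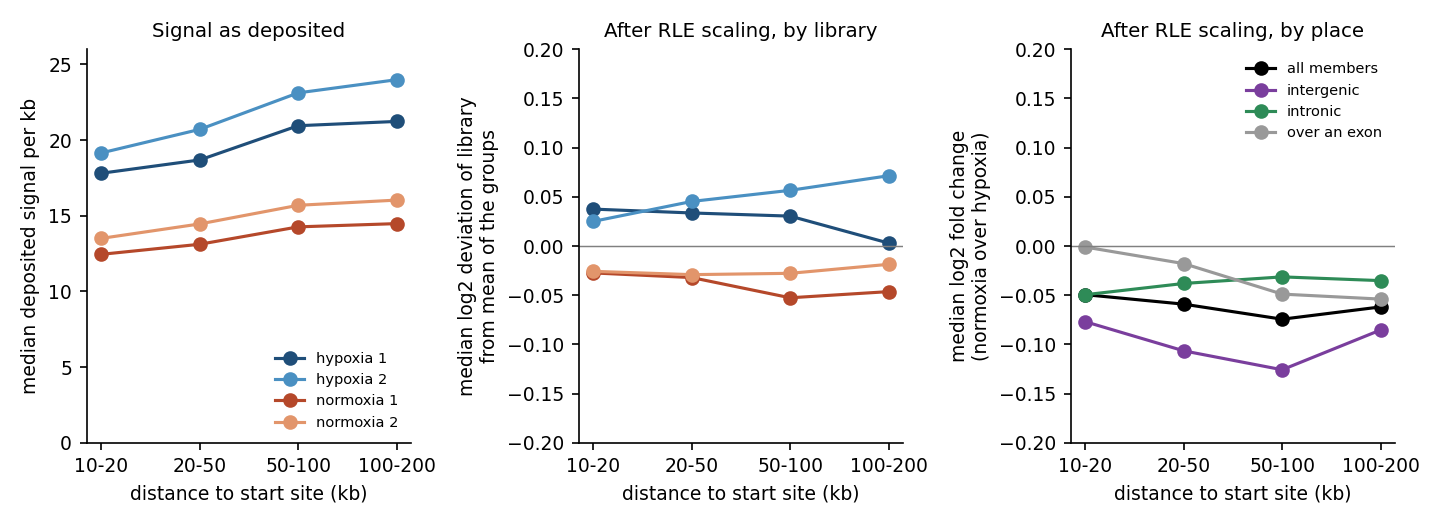
Wide distal peaks by distance to the nearest protein-coding start site (x axes, kb): left, median deposited signal per kb in each library; middle, median log2 deviation of each library from the mean of the groups after RLE scaling; right, median log2 fold change (normoxia over hypoxia) for all members and by place. Signal per kb rises in each library, while the medians of all members stay between -0.05 and -0.07 across the 4 classes.

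Place made a small difference. The median log2 fold change was -0.10 in intergenic members, -0.04 in intronic members and -0.02 in members over an exon. Of the 5456 intergenic members 529 (9.7%) were called lower and 79 (1.45%) higher. Of the 4632 intronic members 257 (5.55%) and 96 (2.07%) were called, and of the 1988 over an exon 113 (5.68%) and 36 (1.81%). The shares were 7.44% and 1.75% over all members and 4.57% and 1.77% over all peaks. Intronic minus intergenic gave -0.04 and -0.03 in the hypoxia libraries against 0.03 and 0.02 in the normoxia libraries, an effect of 0.06 with no overlap between conditions (exact permutation p = 0.33). The effect had the same sign in each of 5 bands of signal, at 0.03 to 0.06. Intergenic members were below intronic ones in each distance class, and they reached -0.13 from 50 to 100 kb. Width went the same way as signal, from -0.03 under 2500 bp to -0.10 at 4000 bp and over, and under cyclic loess that order reversed (0.03 and 0.13).

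Some members had neighbours that the peak caller gave to hypoxia alone. A total of 1613 members directly abutted such a peak, and 184 had one on both sides. Their median log2 fold changes were -0.22 and -0.30, against -0.04 for the members without one. The caller assigned these neighbours from the same 4 libraries, so the values are a description and were not tested.

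Part of the wide distal peaks lay close to another one. With gaps of at most 10 kb, 4894 members (40.5%) formed 1983 groups of 2 or more, and 81 groups held 5 or more. The same share was not taken for other peaks, so a tendency to lie together was not tested. Changes were more alike in near neighbours. Across 2911 pairs of consecutive members up to 10 kb apart Pearson's r of the log2 fold changes was 0.27, across 3422 pairs at 10 to 50 kb it was 0.16, across 3242 pairs at 50 to 200 kb 0.06, and across 2482 pairs farther apart 0.02. These pairs share the 4 libraries and, when near, often share base composition, and r is given as a description. Of the 476 near pairs with a lower call, 58 had both members called lower and 1 had calls in opposite directions.

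The strongest group by summed signal, at chr4:144924501-145027800, held 14 members nearest Dhrs3, a retinal reductase of vitamin A metabolism, and Vps13d. Its summed signal was 1758 and 1797 in hypoxia against 1019 and 1183 in normoxia, and 1 of its members was called lower. The next, at chr12:73774401-73848500, held 9 members nearest Hif1a, the oxygen-regulated subunit of the HIF transcription factor, with summed signals of 1351 and 1452 in hypoxia against 695 and 775 in normoxia. In this group 3 members were called lower and the median log2 fold change was -0.48. A group of 7 nearest Prelp, a matrix proteoglycan of connective tissue, summed to 946 and 1003 in hypoxia and to 671 and 700 in normoxia, with 1 member called higher and a median of 0.03.

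The members had 5184 nearest genes, of which 2534 had a single member and 85 had 10 or more. Nav2, a neuron navigator protein that binds the cytoskeleton, had most, with 28 members between 14157 and 147992 bp from a start site, 21 of them intronic. Of the 28, 1 was called higher, and their median was 0.06. Gse1, which encodes a coiled-coil protein found with histone demethylase complexes, had 21 (1 higher, median 0.03), and Trabd2b, an inhibitor of Wnt ligands at the cell surface, also 21 (2 lower, median -0.07). The forkhead repressor Foxn3 had 19 members, with 1 called lower and a median of -0.12.

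Trib1, a pseudokinase scaffold that directs CEBP factors to degradation, had 18 members, of which 6 were called lower, more than for any other gene, and the median was -0.39. Bicc1, an RNA-binding protein, had 18 (1 lower, -0.04), the forkhead factor Foxp1 18 (3 lower, -0.18), Klhl29, a kelch-family protein, 18 (4 lower, -0.24) and Tgfbr3, the co-receptor betaglycan, 18 (3 lower, -0.20). The next in rank were tied at 17 members: Asap1, a regulator of ARF GTPases (2 lower, 0.16), Lpp, a focal adhesion protein (-0.05), and Slit3, a guidance ligand (0.0056). Near Lpp and near Slit3 limma and edgeR called 0 members, with an unadjusted p under 0.05 lower in 2 and 2 and higher in 2 and 1.

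The member called lower with the lowest p-value, at chr19:20370401-20375600, lay over exons at the 3′ end of Anxa1, a phospholipid-binding protein that restrains inflammation, 15073 bp from its nearest start site. Its signal was 434 and 506 in hypoxia against 145 and 152 in normoxia, and the log2 fold change was -1.18 (SE 0.10, limma adjusted p = 1.58e-09). Groups that did not overlap after RLE scaling were a condition for this choice. Intergenic at chr11:31380901-31383800 and 10827 bp from Stc2, a secreted stanniocalcin glycoprotein, a second member had 315 and 329 in hypoxia against 95.2 and 130 in normoxia, a log2 fold change of -1.05 (SE 0.11, limma adjusted p = 3.42e-07). The member at chr8:104021701-104024000 was nearest Cdh5, the endothelial VE-cadherin, at a distance of 77625 bp. It had 191 and 230 in hypoxia against 62.6 and 74.8 in normoxia, a log2 fold change of -1.13 (SE 0.12, limma adjusted p = 3.49e-07), and the promoter of Cdh5 had no peak in these cells.

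A member at chr17:63660201-63662700, 160184 bp from Fbxl17, an F-box protein of a ubiquitin ligase, had 288 and 308 in hypoxia against 106 and 108 in normoxia (log2 fold change -0.99, SE 0.11, limma adjusted p = 4.51e-07). The fifth, at chr5:107086601-107088800 and 44123 bp from Tgfbr3, had 209 and 219 in hypoxia against 70.8 and 81.4 in normoxia, a log2 fold change of -1.01 (SE 0.12, limma adjusted p = 1.40e-06). In these 5 the log2 fold change was negative and limma called them under cyclic loess as well (-0.64 to -0.84). At most 7.69% of their 100-base tiles mapped back to the genome with a mapping quality under 15 (the Anxa1 peak), and the other 4 had none.

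Among the members called higher, the lowest p-value belonged to chr15:75085301-75087300, 24397 bp from Ly6c2, which encodes a surface antigen of monocytes, with 82.5 and 80.6 in hypoxia against 252 and 204 in normoxia. Its log2 fold change was 1.94 (SE 0.13, limma adjusted p = 5.60e-12), and 57% of the peak was repeat. At chr2:181916701-181919400, 52364 bp from Polr3k, a subunit of RNA polymerase III, the signal was 45.6 and 36.7 in hypoxia against 137 and 126 in normoxia, a log2 fold change of 2.13 (SE 0.15, limma adjusted p = 1.91e-11), with 62.4% repeat. A member close by at chr2:181930201-181932500, nearest Gm14496, had 21.9 and 19.4 in hypoxia against 56.97 and 52.4 in normoxia, a log2 fold change of 1.83 (SE 0.18, limma adjusted p = 6.45e-08), with 41.0% repeat. Across all members called higher the median repeat content was 15.2%, against 15.5% of all members, so these 3 were not typical of them.

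The fourth, at chr17:39842701-39849100, is by far the strongest member, with a mean signal of 6080. Its nearest protein-coding gene is Esp38, but GENCODE places a ribosomal RNA gene (CT010467.1) and the noncoding Gm26917 and Gm42418 within it, and its GC content was 62.3%. Its signal was 5307 and 4341 in hypoxia against 7154 and 7518 in normoxia, a log2 fold change of 1.09 (SE 0.08, limma adjusted p = 7.35e-08). Of its 100-base tiles 7.81% mapped back with a mapping quality under 15. Tiles cut from the reference cannot show copies that the reference lacks. It held 0.568% and 0.421% of all member reads in hypoxia and 1.19% and 1.11% in normoxia. Under cyclic loess its log2 fold change was 1.89 and it was not called (limma adjusted p = 0.092). The fifth, at chr7:83918501-83923600 and 26499 bp from Mesd, a chaperone of LDL-receptor-related proteins, had 36.8 and 35.7 in hypoxia against 67.8 and 69.4 in normoxia, a log2 fold change of 1.37 (SE 0.16, limma adjusted p = 7.48e-07).

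**Figure D4:**
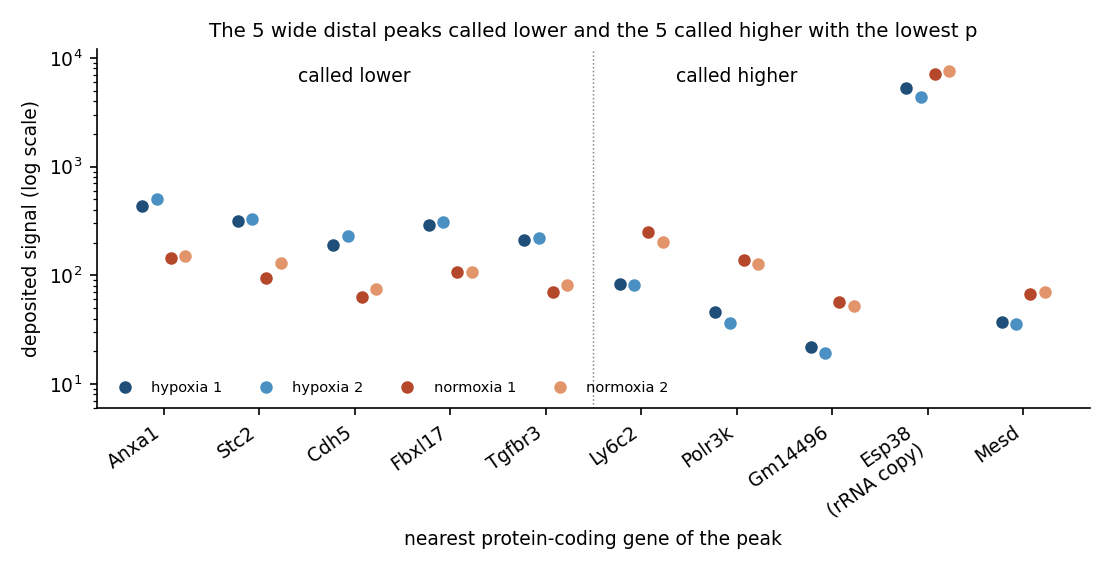
Deposited signal (y axis, log scale) in each of the 4 libraries for the 5 wide distal peaks called lower and the 5 called higher in normoxia with the lowest limma p-values, named by the nearest protein-coding gene. The 10 peaks were chosen among those whose groups did not overlap after RLE scaling, so separation on that scale was a condition of the choice. The peak over a ribosomal RNA gene (Esp38) stands far above the rest, at 4341 to 7518.

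Per kb of peak the ribosomal RNA gene led with 950, and the next in rank were far below it. A member at chr16:42873901-42877200, 30445 bp from Zbtb20, a zinc-finger repressor, had 178 per kb and a signal of 754 and 803 in hypoxia against 329 and 460 in normoxia. It overlapped an exon of a protein-coding gene and held a start site of the noncoding 4932412D23Rik. It was called lower (log2 fold change -0.52, SE 0.09, limma adjusted p = 3.67e-04), whereas under cyclic loess its log2 fold change was near 0 (adjusted p = 0.999).

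At chr8:4676401-4680200, 50561 bp from Zfp958, a zinc-finger gene, a member with 147 per kb had 685 and 764 in hypoxia against 318 and 462 in normoxia (log2 fold change -0.44, SE 0.098, limma adjusted p = 0.00285), and under cyclic loess its value was 0.08. A start site of Gm7461, which is of another gene type, lay within this member. The member at chr19:61265301-61267400, nearest Gm21060, had 140 per kb with 340 and 281 in hypoxia against 290 and 269 in normoxia. As deposited its groups overlapped, and after RLE scaling it was not called (log2 fold change 0.33, limma adjusted p = 0.041), whereas under cyclic loess it was called higher (log2 fold change 0.76).

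The AP-1 motif was found less often at the centre of wide distal peaks than of narrow ones. In the central 300 bases the AP-1 motif was found in 8.58% of members, in 19.3% of narrow distal peaks and in 3.77% of promoter peaks. Over whole peaks it occurred 0.329 times per kb in members, 0.445 in narrow distal peaks and 0.181 in promoter peaks. The centre of a wide peak need not be its summit, and summits were not used here. RUNX, TEAD and CEBP motifs were found in 23.4%, 19.4% and 13.9% of the windows of members, in 29.4%, 23.7% and 17.7% of those of narrow distal peaks and in 14.2%, 12.9% and 9.44% of those of promoter peaks, the same order as for AP-1. The ETS motif CCGGAAG went the other way, with 1.23% in members and 7.38% in promoter peaks. The HIF core ACGTG was found in 14.1% of members, 14.5% of narrow distal peaks and 21.6% of promoter peaks.

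Members with AP-1 in the central window were lower in normoxia than those without. The 1036 members with the motif had a median log2 fold change of -0.15 and the 11040 without it -0.05. Of those with it 109 were called lower and 6 higher, and of those without it 790 and 205. These counts stand beside 7.44% lower and 1.75% higher of all members, and 4.57% and 1.77% of all peaks. The difference of medians was 0.04 and 0.06 in the hypoxia libraries against -0.07 and -0.05 in the normoxia libraries, an effect of -0.11 with no overlap (exact permutation p = 0.33). Members with the motif also had a higher signal (median 62.2 against 51.2). Within bands of signal the effect was 0.014 under 20, -0.06 from 20 to 50, -0.07 from 50 to 100, -0.04 from 100 to 200 and 0.04 at 200 and over, so it was smaller at equal signal and had the other sign in the weakest and the strongest band. Under quantile and cyclic loess scaling the effect over all members was -0.058. Of the other motifs, ETS gave -0.12 with (149 members) and -0.06 without, the CRE motif TGACGTCA (0.430% of all windows) -0.11 (41 members) and -0.06, CEBP -0.10 and -0.05, the PU.1 motif GAGGAAGT (2.21% of all windows) -0.10 (246 members) and -0.06, and RUNX -0.06 with and without. These differences were not tested. TEAD gave -0.06 with and without, and the HIF core -0.06 with and without.

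Counted over whole peaks, 4573 members held no AP-1 match, 4228 held 1, 2161 held 2, 798 held 3 and 316 held 4 or more. Their medians were -0.01, -0.06, -0.10, -0.18 and -0.22. Over the same classes the median signal rose from 43.7 to 89.1 and the median width from 2500 to 3900 bp, and the part of either in the medians was not tested apart from the bands. From 50 to 100 in signal the medians ran from -0.11 with no match to -0.15 with 4 or more, and from 100 to 200 from -0.27 to -0.35. Neither fell steadily. At 200 and over the median was -0.42 with no match and -0.33, -0.36 and -0.39 with 1, 2 and 3. Under 20 it was 0.24 with no match and 0.26, 0.30 and 0.25 with 1, 2 and 3. Among members called lower there were 0.405 AP-1 matches per kb and among those called higher 0.240. The Tgif1 and Gas7 sequences printed above each have 1 match in the window. The Tgif1 member, in an intron of Dlgap1, had 226 and 280 in hypoxia against 88.8 and 104 in normoxia, and the Gas7 member, in an intron of Gas7 itself, 190 and 197 in hypoxia against 59.6 and 82.4 in normoxia.

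**Figure D5:**
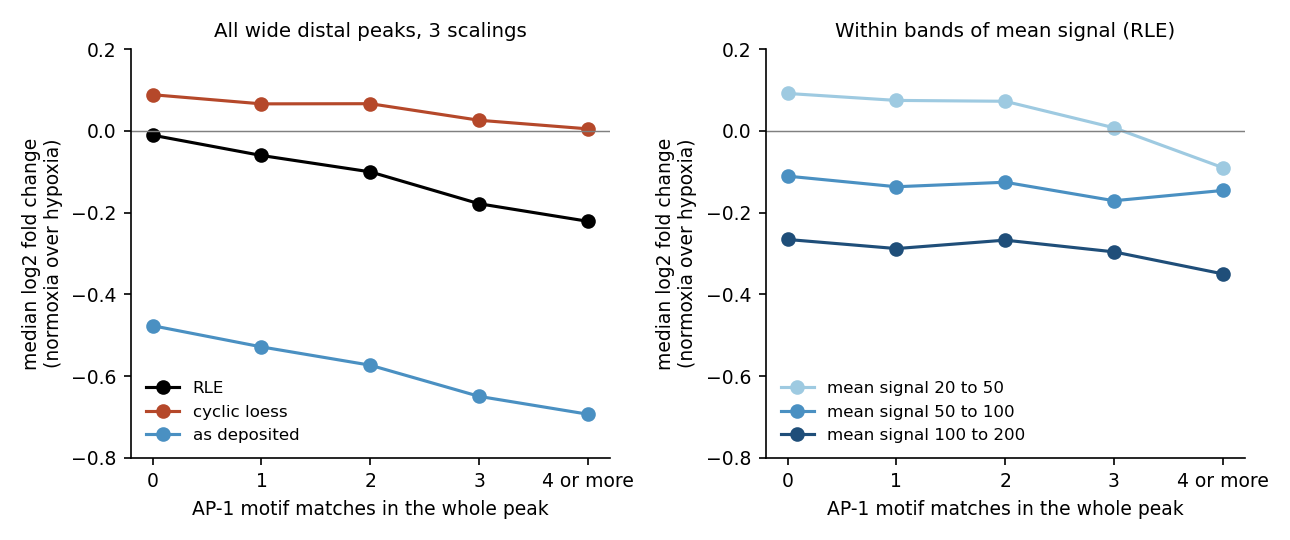
Median log2 fold change of wide distal peaks (normoxia over hypoxia, y axes) by the number of AP-1 motif matches in the whole peak (x axes): left, all members under 3 scalings; right, after RLE scaling within 3 bands of mean signal. On the left the RLE line falls from -0.01 to -0.22; on the right the lines are flatter, from -0.11 to -0.15 in the band from 50 to 100.

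Members were grouped by lists of genes named for what the nearest gene does, and the counts of each list stand beside 7.44% of members and 4.57% of all peaks called lower. Lists are small, and several sat near these shares. Of 33 members near bone matrix and mineralization genes, 8 were called lower, with a median log2 fold change of -0.25. Col1a2, a chain of type I collagen, accounted for 4 of the 8 with 7 members. Its strongest, at chr6:4487301-4490800 and 14014 bp from the start site, had 240 and 288 in hypoxia against 115 and 126 in normoxia (log2 fold change -0.64, SE 0.11, limma adjusted p = 2.24e-04), and under cyclic loess it was not called (adjusted p = 0.063). Bmp1, the procollagen C-proteinase, Ank, a pyrophosphate exporter, Col1a1 and Dmp1, an osteocyte matrix protein, had 1 member called lower each. The median signal of these 33 members was 74.9, above the 52.1 of all members.

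Near osteogenic regulators 4 of 36 members were called lower (median -0.03). A pair of these 4 lay near Dlx6, a homeobox factor of limb and jaw, with 239 and 239 in hypoxia against 113 and 127 in normoxia at the stronger. The others lay near Hey1, a Notch target (130 and 150 in hypoxia, 57.3 and 75.1 in normoxia), and near Fosl2, an AP-1 subunit that acts in bone (81.7 and 71.1 in hypoxia, 35.6 and 35.4 in normoxia). Under cyclic loess none of these 4 was called, with log2 fold changes of -0.17 and -0.11 near Dlx6, -0.35 near Hey1 and -0.48 near Fosl2 (-0.51, -0.44, -0.60 and -0.61 after RLE scaling).

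Of 22 members near chondrogenic genes 3 were called lower (median -0.11). A member 159724 bp from Sox9, the master regulator of cartilage, had 117 and 124 in hypoxia against 44.6 and 48.1 in normoxia (log2 fold change -0.89, SE 0.14, limma adjusted p = 6.24e-05), and it stayed called under cyclic loess. The other 2 were nearest Pthlh, the parathyroid-hormone-related ligand of the growth plate, and Col2a1. Near adipogenic genes 3 of 41 were called lower (median -0.09), nearest Cebpa, Klf4 and Zfp423. The Cebpa member had 95.2 and 125 in hypoxia against 41.6 and 54.4 in normoxia (log2 fold change -0.71).

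BMP and TGF-beta genes had 85 members, with 9 called lower and 1 higher (median -0.15). Smad7, the inhibitory SMAD, had 5 of the 9 with 15 members, Tgfbr3 3 and the BMP receptor Bmpr1b 1. The member called higher lay 137932 bp from the ligand gene Bmp4, with 67.9 and 78.2 in hypoxia against 77.6 and 94.4 in normoxia. As deposited these values overlapped, and after RLE scaling the log2 fold change was 0.70 (SE 0.14, limma adjusted p = 7.69e-04). Wnt genes had 75 members, 0 of which was called by limma in either direction at a median of -0.01 (unadjusted p under 0.05 lower in 13 and higher in 8, edgeR 3 lower). On the RLE scale 25 of these 75 had both normoxia libraries below both hypoxia libraries and 15 had both above, against 37.8% and 23.8% of all members and 29.6% and 27.4% of all peaks.

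The hypoxia response list had 49 members, with 7 called lower and 1 higher (median -0.14). Of the 7, 3 lay near Hif1a, 2 near Pfkfb3 and 1 each near Pfkfb4 and Hk2, enzymes of glycolysis and its control. The strongest member near Hif1a, at chr12:73786101-73791900, had 412 and 425 in hypoxia against 215 and 267 in normoxia, with a log2 fold change of -0.32 (SE 0.10), which was not called (limma adjusted p = 0.023). The member called higher was 1 of 6 near Vegfa, the angiogenic growth factor, with 68.3 and 58.5 in hypoxia against 67.1 and 71.4 in normoxia, values that overlap as deposited.

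Near AP-1 and other immediate-early genes 3 of 32 members were called lower (median -0.21). The list holds Fosl2 too, and 2 of the 3 were nearest Jun. At 52679 bp from Jun a member had 229 and 227 in hypoxia against 84.0 and 99.4 in normoxia (log2 fold change -0.84, SE 0.12, limma adjusted p = 1.96e-05), and it was called under cyclic loess too. Matrix and adhesion genes had 102 members, with 6 called lower and 1 higher (median -0.13), among them 1 near Fn1, fibronectin, and 1 near Col12a1. The member called higher lay near Thbs1, thrombospondin 1. Genes of mesenchymal identity and the niche had 49 members and 3 lower calls (median -0.20), of which 2 lay near Cxcl12, the chemokine that retains blood stem cells, and 1 near the hyaluronan receptor Cd44.

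NF-kB and secreted inflammatory genes had 36 members and 4 lower calls (median -0.10), nearest Nfkbia, Ptgs2, Nfkb1 and Nfkbiz. The Nfkbia member, 7500 bp wide, had 477 and 519 in hypoxia against 238 and 295 in normoxia (log2 fold change -0.43, SE 0.09, limma adjusted p = 0.00236), while under cyclic loess its log2 fold change was 0.03. YAP and TEAD targets had 48 members with 3 lower calls (median 0.004), nearest Ankrd1, Ccn2 and Tead1. No list had more than 1 member called higher on the RLE scale. Lists with a median below the -0.06 of all members had median signals of 47.2 to 74.9. The other lists had 40.2 to 65.4, so the ranges overlapped. The part of signal in the list medians was not tested.

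Genes of other cell types also had wide distal peaks nearby. Blood-lineage genes had 11 members (2 lower, median -0.28), both calls nearest Runx1, which bone cells also use, and endothelial genes 13 (2 lower, median -0.15), nearest Cdh5 and Erg. Epithelial genes had 7 (0 called by limma and edgeR and 0 at an unadjusted p under 0.05, median 0.17) and neural genes 3 (1 lower, nearest Neurod1). The nearest gene is a label of position in these cases.

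Members over VISTA elements had a median log2 fold change of -0.15, with 14 called lower and 2 higher of 122, beside 7.44% and 1.75% of all members and 4.57% and 1.77% of all peaks. Narrow distal peaks over VISTA elements had -0.06, with 2 lower and 1 higher of 161. The 36 that overlapped an element active in limb had -0.22 with 6 lower, and their median signal was 83.2. The element mm466, with reporter activity in the limb, the tail, the branchial arch, the nose and the hindbrain, lay in a member 176664 bp from Efcab1 that had 270 and 297 in hypoxia against 125 and 134 in normoxia (log2 fold change -0.64). The element mm1473, active in limb and eye, lay in a member 20646 bp from Nedd4 that had 173 and 176 in hypoxia against 121 and 143 in normoxia (log2 fold change 0.07). Both had less signal in normoxia as deposited, as did 92.6% of members and 81.2% of all peaks. The first was called and the second was not (limma adjusted p = 0.751).

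At the edges of the rule the values ran on smoothly. Shared distal peaks of 1900 bp, just too narrow, had a median signal of 34.3 and a median log2 fold change of -0.03, and members of 2000 bp had 33.3 and -0.02. Members of 7000 bp and over had a median log2 fold change of -0.09, and wider peaks of 8000 bp and over -0.07. Peaks 9 to 10 kb from a start site had -0.07, members at 10 to 11 kb -0.05, members at 190 to 200 kb -0.05 and peaks at 200 to 210 kb -0.09.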

How the data were processed

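ATAC-seq libraries of hypoxia- and normoxia-cultured MSCs, 2 each, were analysed from the deposited peak table. Per the study's methods and the labels, the authors mapped to mm10 (Bowtie2), marked duplicates (Picard) and called 1 peak set over both conditions with chromstaR (bins of 300 bp, steps of 100 bp, mapping quality of at least 15) and exported each library's signal at every peak. The deposited signal, named RPKM by the authors, is not divided by width. In each library 100% of values were whole multiples of 1 step (tolerance 0.01), so reads and library totals were recovered. Since a recovered unit may be a fragment or a read position, no counting interval was given.

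Distances run from the nearer peak edge to start sites of protein-coding GENCODE M21 transcripts. limma 3.58.1 in R 4.3.3 (trend and robust eBayes, two-sided) tested log2(signal + 1) after RLE scaling, adjusted by Benjamini-Hochberg across the 128055 peaks, with a threshold of 0.01; such fold changes understate low peaks, and p-values measure only the spread between these libraries. edgeR 4.0.16 ran on recovered reads. Sets of peaks were compared as differences of medians per library, by exact permutation over the 4 libraries. Motifs were matched as letters on both strands, and 100-base tiles were mapped back with minimap2 2.31.

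The members, gene lists and tests were chosen with earlier results of these data known. Named peaks were, by rule, the 5 called lower and the 5 called higher with the lowest p (mean signal of at least 10, groups not overlapping), the 5 highest per kb, the 10 genes with most members (12 with ties) and, per list, the 2 strongest members and called ones. The Tgif1 and Gas7 members, runs of neighbours, VISTA elements and the other genes given were chosen after their values were seen. Of the peaks and markers so chosen, 1 peak and 1 marker are not reported here. Alternatives covered scaling, pseudocount, filter, threshold, test, distance measure, replicate block and each library left out.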

Additional observations from a re-analysis of the deposited data

How the results depend on the processing

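On 2 libraries per condition, the exact permutation test of peak sets cannot go below p = 0.33. Calls of members were 899 lower and 211 higher. They became 5017 and 18 as deposited, 139 and 1287 with an equal total over peaks, 130 and 382 with cyclic loess, 1732 and 623 at an FDR under 0.05, and 0 and 0 with eBayes without trend and robust estimation (unadjusted p under 0.05 in 1105 and 704; edgeR 1122 and 303). Quantile scaling gave 86 lower and 248 higher calls, and a pseudocount of 0.1 gave 678 and 140. The equal total counted the peaks of the mitochondrial genome too. Leaving out 1 library gave 0 to 1205 lower and 0 to 175 higher calls, with 0 without hypoxia replicate 1 or 2; that leaves 1 hypoxia library, assumed to vary like normoxia. The median log2 fold change of members, -0.06, was -0.53 as deposited, -0.036 with TMM, 0.23 with an equal total, 0.064 with quantile scaling, 0.069 with cyclic loess and -0.085 to -0.053 with 1 library left out. Members minus narrow distal peaks (-0.18) turned to 0.038 with quantile scaling and 0.051 with cyclic loess. The farthest minus the nearest members (-0.01) turned to 0.0086 with quantile scaling, 0.0048 with cyclic loess and 0.0024 with gene start sites, and ran from -0.045 to 0.021 with 1 library left out. The differences for promoters, place and AP-1 kept their sign under each alternative run, but under quantile and cyclic loess scaling those for promoters (0.23) and AP-1 (-0.11) shrank to 0.11 and -0.058. The cause of these shifts was not tested. Whether same-numbered libraries came from the same isolation is not given, and their numbers were not taken as pairs (correlation of deviations 0.011 over all peaks, 0.097 over members); with the replicate block there were 1235 lower and 377 higher calls, and the block changed no direction.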

Other observations

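A total of 30 wide distal peaks overlapped 35 microRNA hairpins listed by RefSeq, which were looked at after the other results. The member over Mir199a-2, 1 of the genes of the mesenchymal microRNA miR-199a, lay in an intron of Dnm3 and had 261 and 280 in hypoxia against 135 and 141 in normoxia, with a log2 fold change of -0.49 on the RLE scale (limma adjusted p = 0.00236). The member over Mir199a-1 had 222 and 229 in hypoxia against 143 and 134 in normoxia, with a log2 fold change of -0.22 that was not called (limma adjusted p = 0.188). Both normoxia libraries were below both hypoxia libraries at each gene as deposited, as in 79.6% of members and 59.5% of all peaks. The member over Mir193b, intergenic and 87680 bp from Mrtfb, had 197 and 213 in hypoxia against 101.2 and 118 in normoxia, and it missed the threshold (log2 fold change -0.42, limma adjusted p = 0.012).

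Members with a start site of another gene type no more than 1 kb away had a median log2 fold change of -0.15 and a median signal of 63.3, against -0.05 and 51.2 for the other members. Of these 1059 members 122 were called lower and 19 higher, beside 7.44% and 1.75% of all members and 4.57% and 1.77% of all peaks. A difference in change at equal signal between members with and without such a start site was not tested.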
